A study of Mus musculus with 4 samples.

Results

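The genes for the interleukin 1, interleukin 36, interleukin 33 and interleukin 18 receptors lie side by side on mouse chromosome 1, and the open chromatin of this cluster was described in T-helper 17 (Th17) cells. The cluster holds 6 receptor genes, Il1r2, Il1r1, Il1rl2, Il1rl1, Il18r1 and Il18rap, out of 21851 protein-coding genes in the annotation. Its window, chr1:40024079-40601705 on the mm10 build, spans the gene bodies of the 6 receptors and 50 kb at each end, 577.6 kb in all. Every open region that overlapped this window was taken, 192 of the 338461 regions listed over all replicates, and each was given to the gene body that held its summit or otherwise to the gene with the nearest transcription start site (TSS). The kinase gene Map4k4 also reaches into the window at its left end, and Slc9a4, a sodium and proton exchanger gene, at its right end.

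The data are ATAC-seq peak lists, in which a transposase marks accessible DNA, from primary mouse Th17 cells of strain C57BL/6NJ. There is 1 group of 4 biological replicates and no treated, mutant or control group. The labels give the same donor identifier for all 4 replicates and neither sex nor age, so the spread between replicates may be partly technical. Each list held 84615 ± 697 regions (SD, n = 4), and since the lists hold no read counts the sequencing depth is unknown. Replicates 1 and 2 carry the tag KS134 in their region names and replicates 3 and 4 the tag KS136. The names also hold 72hrs and ASTARR.insert, and none of these words is explained in the labels, so what they mean for the cells or the library is unknown. With 4 replicates the smallest two-sided p that a sign-flip permutation can give is 0.125, so values are given with their spread and no test.

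The receptors of this cluster share an intracellular TIR domain, except the decoy Il1r2, which lacks it and binds interleukin 1 without signalling. Il1r1 is the signalling interleukin 1 receptor, which in Th17 cells sustains the interleukin 17 programme. Il1rl2 binds interleukin 36, Il1rl1, also called ST2, binds interleukin 33 and is best known from Th2 cells, regulatory T cells and mast cells, and Il18r1 with its partner Il18rap binds interleukin 18. On ligand binding the receptors recruit Myd88 and IRAK kinases and switch on NF-kB and MAP kinases.

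The cell label was checked at promoters, where a promoter counts as open when every replicate had a region within 1 kb of a TSS. All 3 T cell genes found in the protein-coding annotation (Cd3e, Cd4 and Lck) and all 5 Th17 genes (Il17a, Il17f, Il23r, Ccr6 and Rora) were open, where 62.2% of all protein-coding genes were. Of the other cell types, 0 of 3 B cell, 0 of 4 myeloid, 1 of 3 mast cell (Kit) and 0 of 2 natural killer cell genes were open. Klrb1c, of the natural killer list, was open in 2 replicates.

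The sequences below are the 101 bases around the summits of the regions on which the results turn, read from the mm10 genome on the plus strand. They are the 6 strongest regions between Il1r2 and the end of Il1rl1 and the Il1r2 upstream region with the most motif matches. Capitals mark matches on either strand to the strings TGANTCA (AP-1), TGTGGTT (RUNX), AGGAAGT (ETS), TTCNNNGAA (STAT), TAGGTCA (ROR) and AGGTGNGA (T-box), and to the CTCF and NF-kB patterns. No 2 of the matches printed overlap.
Il1r2 upstream, chr1:40056011-40056111: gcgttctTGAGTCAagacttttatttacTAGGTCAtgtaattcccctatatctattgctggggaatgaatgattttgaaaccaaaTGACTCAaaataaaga
Il1r1 far upstream, chr1:40174277-40174377: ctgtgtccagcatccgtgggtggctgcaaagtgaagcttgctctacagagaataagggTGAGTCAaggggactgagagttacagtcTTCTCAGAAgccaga
Il1r1 near upstream, chr1:40217174-40217274: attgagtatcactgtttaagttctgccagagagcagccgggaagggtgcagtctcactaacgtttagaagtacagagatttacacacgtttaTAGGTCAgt
Il1rl2 intron, chr1:40358967-40359067: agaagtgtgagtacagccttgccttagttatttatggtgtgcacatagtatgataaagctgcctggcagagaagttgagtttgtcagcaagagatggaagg
Il1rl1 upstream, chr1:40393400-40393500: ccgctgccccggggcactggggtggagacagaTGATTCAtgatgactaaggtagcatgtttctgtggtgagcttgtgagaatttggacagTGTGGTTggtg
Il1rl1 upstream, nearer, chr1:40413138-40413238: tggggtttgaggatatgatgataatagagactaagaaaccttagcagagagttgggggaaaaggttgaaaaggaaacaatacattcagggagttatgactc
Il1rl1 intron, chr1:40444836-40444936: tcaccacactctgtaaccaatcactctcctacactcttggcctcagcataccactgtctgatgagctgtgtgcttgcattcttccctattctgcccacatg

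Promoters are shown for a contrast the data make, the closed upstream promoter of Il1rl1 beside the open promoters of Il1r1 and Il18rap. Each is the 250 bases before a TSS, from RefSeq on GRCm38.p6, plus strand, with capitals for matches to the AP-1, STAT, RUNX, ETS and NF-kB strings.
Il1rl1 promoter, chr1:40429320-40429569: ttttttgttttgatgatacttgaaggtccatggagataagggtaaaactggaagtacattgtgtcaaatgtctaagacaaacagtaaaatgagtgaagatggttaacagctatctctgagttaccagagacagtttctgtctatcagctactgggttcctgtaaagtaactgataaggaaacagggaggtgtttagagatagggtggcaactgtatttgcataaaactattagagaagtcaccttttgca
Il1r1 promoter, chr1:40224830-40225079: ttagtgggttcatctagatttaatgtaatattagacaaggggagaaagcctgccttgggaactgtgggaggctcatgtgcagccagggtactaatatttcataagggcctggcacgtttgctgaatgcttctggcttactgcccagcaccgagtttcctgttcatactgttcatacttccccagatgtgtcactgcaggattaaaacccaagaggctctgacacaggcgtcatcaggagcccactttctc
Il18rap promoter, chr1:40515112-40515361: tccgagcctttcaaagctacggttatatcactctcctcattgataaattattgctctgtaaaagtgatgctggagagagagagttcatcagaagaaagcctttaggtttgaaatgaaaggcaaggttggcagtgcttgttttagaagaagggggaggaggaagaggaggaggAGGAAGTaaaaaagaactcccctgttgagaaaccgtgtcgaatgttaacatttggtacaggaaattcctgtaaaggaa

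The cluster was dense in open regions in every replicate. The window held 48, 46, 51 and 47 regions in replicates 1 to 4, or 8.31 ± 0.374 per 100 kb, against 3.10 ± 0.026 per 100 kb on the rest of the chromosomes (SD, n = 4). The ratio was 2.68 ± 0.114, with a range over replicates of 2.55 to 2.82. The regions covered 6.43% ± 0.363 of the window and 2.37% ± 0.077 of the other bases. Merging the 4 lists left 58 regions in the window, and 41 of them had a region from every replicate, which is called shared here. Over all chromosomes 68.0% of 101015 merged regions were shared, so the cluster lay near the background in this respect.

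The number of shared regions was high for the genome without being extreme. Chromosomes cut into 4708 other windows of the same length had a median of 8 shared regions, and 90.5% of them had fewer than 41. Among the 3902 of those windows with a protein-coding gene the median was 13, and 88.5% had fewer than 41. There were 448 windows with at least as many shared regions as the cluster.

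**Figure D1:**
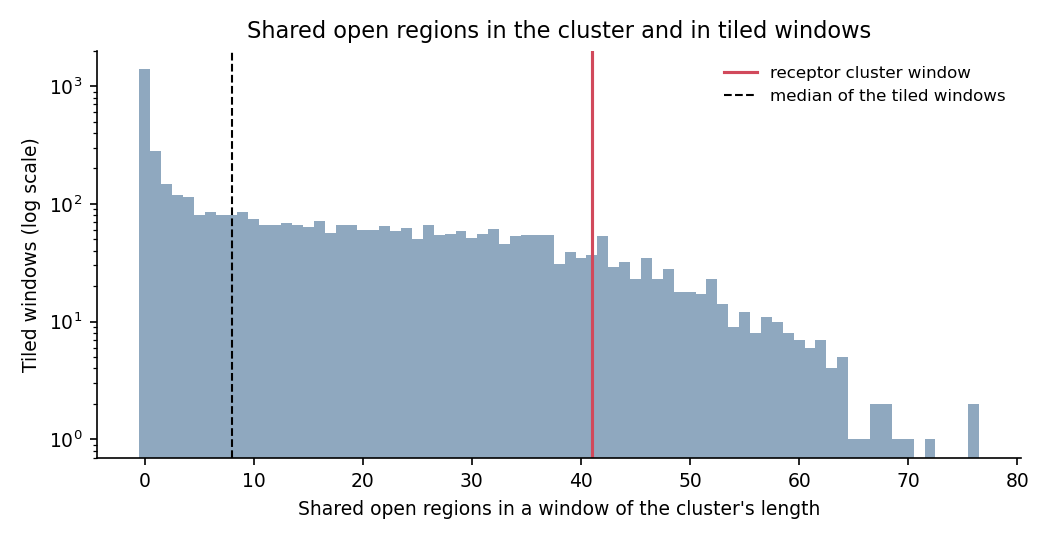
Number of shared open regions (x axis) in 4708 windows of the cluster's length, with the number of windows on a log scale (y axis). The line at 41 is the receptor cluster and the dashed line at 8 is the median of the other windows.

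By the place of their summits, most shared regions lay away from promoters. Of the 41 summits, 20 were intronic (48.8%, against 42.8% of the summits of all shared regions), 15 intergenic (36.6%, against 35.5%), 3 in exons (7.32%, against 3.25%) and 3 within 1 kb of a TSS (7.32%, against 18.4%). The 6 receptors took 37 of the 41, 22 inside gene bodies and 15 outside, while Slc9a4 took 3 and Map4k4 took 1.

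**Figure D2:**
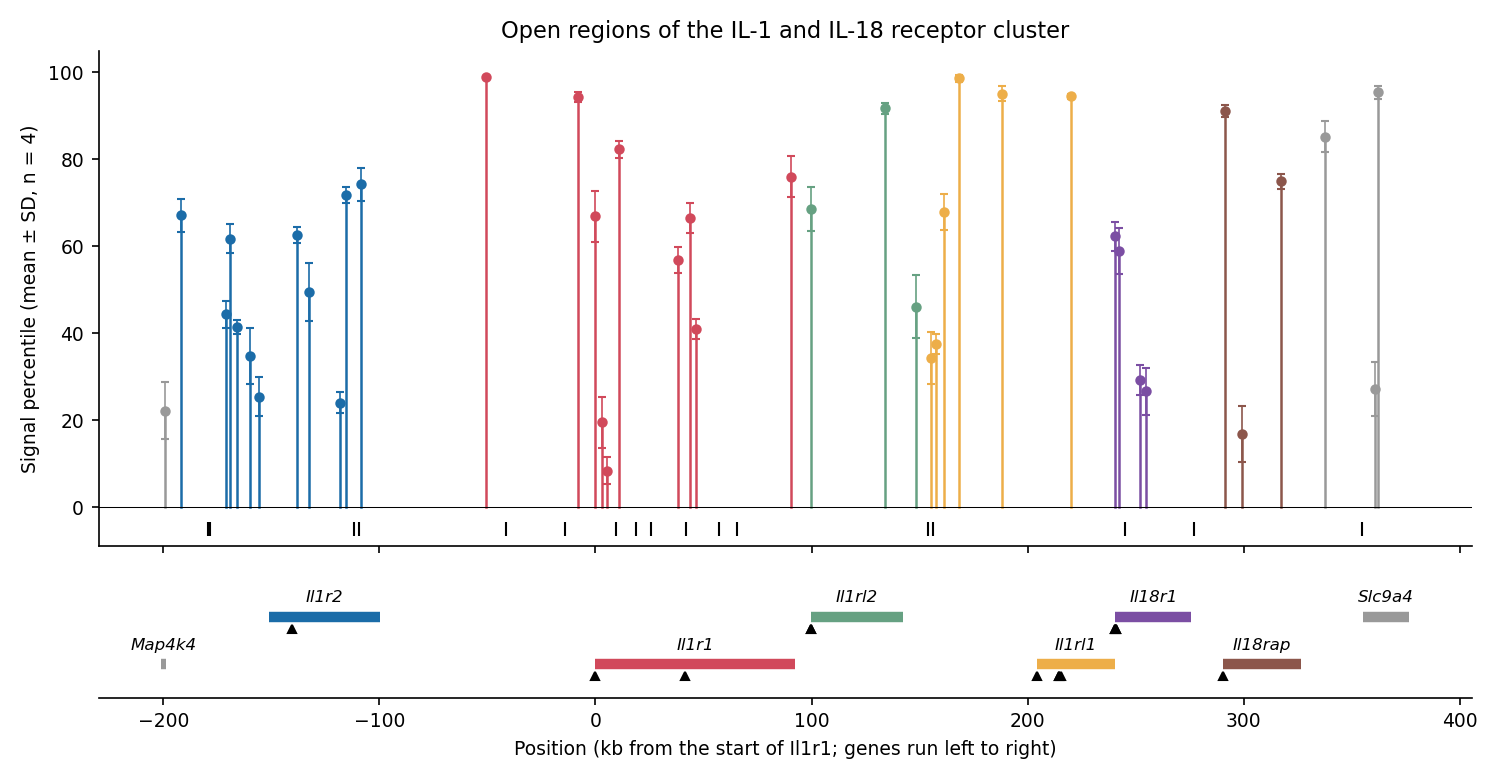
The 41 shared open regions of the window by position, in kb from the start of Il1r1 (x axis), and by signal percentile among all regions of the same replicate, mean ± SD over 4 replicates (y axis). Colours give the gene each region was assigned to, ticks under the axis are the 17 regions that were not shared, bars below are the genes, and triangles are the TSSs of protein-coding receptor transcripts. The 2 highest points are upstream of Il1r1 (98.9) and of Il1rl1 (98.6).

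By count, without regard to gene length, the interleukin 1 receptors had the most open regions. Il1r1 had 12, 14, 14 and 15 regions in replicates 1 to 4, and the decoy Il1r2 had 14, 11, 13 and 12. These 2 sets of values overlap, and their means of 13.75 ± 1.26 and 12.5 ± 1.29 (SD, n = 4) differed by less than the sum of their SDs. Il1rl1 followed with 7, 6, 8 and 6 regions, below every replicate of both interleukin 1 receptors. Il18r1 had 4, 4, 5 and 4, Il18rap had 3, 3, 4 and 3, and Il1rl2 had 3 in each replicate. Il18r1 and Il18rap overlapped at 4 regions, and Il18rap and Il1rl2 at 3.

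**Figure D3:**
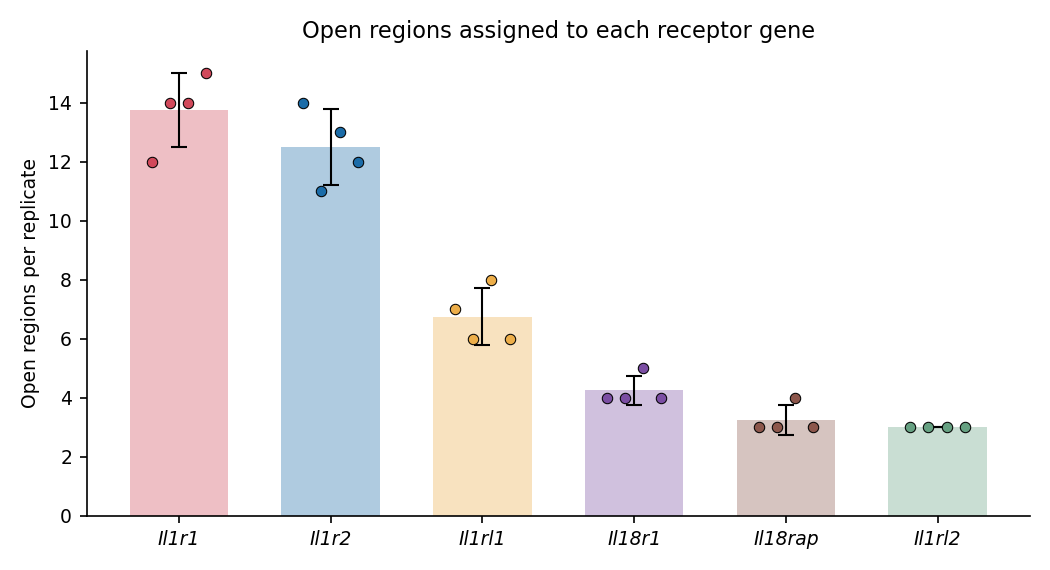
Open regions assigned to each receptor gene (y axis) in each of 4 replicates (points), with the mean (bar) and SD. Il1r1 and Il1r2 lie between 11 and 15 in every replicate, and the other receptors between 3 and 8.

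Counted as shared regions, Il1r2 had 11, Il1r1 10, Il1rl1 6, Il18r1 4, Il1rl2 3 and Il18rap 3. The place of these regions differed between genes. Il1r1 had 7 of its 10 inside the gene, Il18r1 and Il18rap had all of theirs inside, and Il1rl1 had 1 inside and 5 upstream. The nearest-TSS rule takes no account of gene ends. Of these 5, only chr1:40412530-40413524 lies nearer to Il1rl1 than to the end of Il1rl2. Il1r2 had 5 inside and 6 upstream. Its count was 7 when regions had to lie in the gene or within 10 kb of either end. By that rule Il1rl1 had 3, but these took in the promoter region and an intronic region of the adjoining Il18r1. Of the 6 regions assigned to Il1rl1, only the 1 inside the gene met the rule. Within the body alone the median protein-coding gene had 1 shared region, which only Il1rl1 of the 6 receptors did not exceed. The genes differ in length, from 35.3 kb for Il18r1 to 92.2 kb for Il1r1. Per 10 kb of gene body the order changed. Il18r1 had 1.13 shared regions, Il1r2 0.977, Il18rap 0.825, Il1r1 0.759, Il1rl2 0.466 and Il1rl1 0.279.

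Among the gaps between genes, the 62.0 kb between Il1rl2 and Il1rl1 held 6 shared regions, 2 of them above the 95th signal percentile. The 47.8 kb before Il1r2 also held 6, with none above the 90th percentile. The 99.8 kb between Il1r2 and Il1r1 held 3, including the one with the highest mean signal percentile of the window. No shared summit fell in the 7.35 kb between Il1r1 and Il1rl2, the 14.5 kb between Il18r1 and Il18rap or the 136 bp between Il1rl1 and Il18r1. The longest stretch between neighbouring shared regions was 56.9 kb, from the last Il1r2 intronic region to the region far upstream of Il1r1.

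Signal values below are taken, from the format of the lists, as a region's enrichment over background, since the peak caller is not named, and the percentile is the rank of that value among all regions of the same replicate. The shared regions of the window had a median of their mean percentiles of 62.3, against 58.8 for all shared regions. Of the 41, 8 (19.5%) had a mean above the 90th percentile, against a background of 11.9% of all shared regions, and 7 of these 8 belong to the receptors. Below the 50th percentile lay 17 (41.5%), against 39.5%. The cluster thus held both very strong and weak regions.

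The region with the highest mean signal percentile of the window was assigned to Il1r1, far upstream of the gene. It ranked 9 of 41 by -log10 q. This region, chr1:40173618-40174764, lies 50.8 kb before the Il1r1 TSS in the gap behind Il1r2, and its signal was 17.96, 17.7, 16.9 and 16.5 in replicates 1 to 4, at the 98.9 ± 0.335 percentile. All 4 replicates placed it above the 98th percentile. It lies near the middle of the 99.8 kb between Il1r2 and Il1r1 and went to Il1r1 by nearest TSS alone, whatever the end of Il1r2. Its printed sequence holds 1 AP-1 and 1 STAT match. A second strong region, chr1:40216754-40217753, lies 7.86 kb before the TSS, with a signal of 15.1, 15.6, 13.7 and 14.9 and a percentile of 94.3 ± 1.11, and holds 1 ROR match.

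Inside Il1r1, 6 of the 7 shared regions ran from the 8.45 percentile, the lowest of the window, to 76.0, and the other lay higher.

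Strong regions were assigned to Il1rl1, a gene with no open promoter. The strongest, chr1:40392995-40393888, lies 36.1 kb upstream and had a signal of 17.6, 17.0, 16.9 and 16.9, at the 98.6 ± 0.714 percentile. Its summit lies nearer to the end of Il1rl2 than to the Il1rl1 TSS, and nearest TSS alone placed it here. This region overlapped in percentile with the far upstream region of Il1r1, so the 2 cannot be ordered. The next, chr1:40412530-40413524, lies 16.4 kb upstream, with a signal of 15.7, 15.0, 15.3 and 14.5 at the 95.1 ± 1.72 percentile. The only shared region inside the gene, chr1:40444540-40445535, is intronic, 4.26 kb behind the nearest TSS, with a signal of 15.5, 15.3, 14.3 and 14.4 at the 94.5 ± 0.619 percentile. By -log10 q this intronic region ranked first of the 41, at the 99.2 ± 0.0974 percentile.

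No replicate had a region within 1 kb of any of the 4 TSSs of protein-coding Il1rl1 transcripts. The nearest region lay 3912 to 3947 bp from the closest of these starts and 14970 to 15005 bp from the gene's first start. This result was the same within 500 bp and within 2 kb of a TSS and with the starts of all annotated transcripts. The 250 bases printed for its upstream promoter hold no match to the 5 promoter strings, and neither do those of the open Il1r1 promoter.

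The other 5 receptors had an open promoter in all 4 replicates, where 62.2% of all 21851 protein-coding genes did. The promoter region of Il18rap, the accessory chain of the interleukin 18 receptor, was the strongest, with a signal of 14.6, 14.1, 12.8 and 13.5 at the 91.1 ± 1.42 percentile. Its summit lay 1163 bp behind the TSS, in an exon, although the region itself reaches over the start. The promoter regions of Il1rl2 (68.6 ± 5.15), Il1r1 (66.9 ± 5.84), Il1r2 (62.7 ± 1.79) and Il18r1 (62.3 ± 3.40) had percentiles that differed by less than the sums of their SDs, and every replicate of Il18rap lay above every replicate of these 4.

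**Figure D4:**
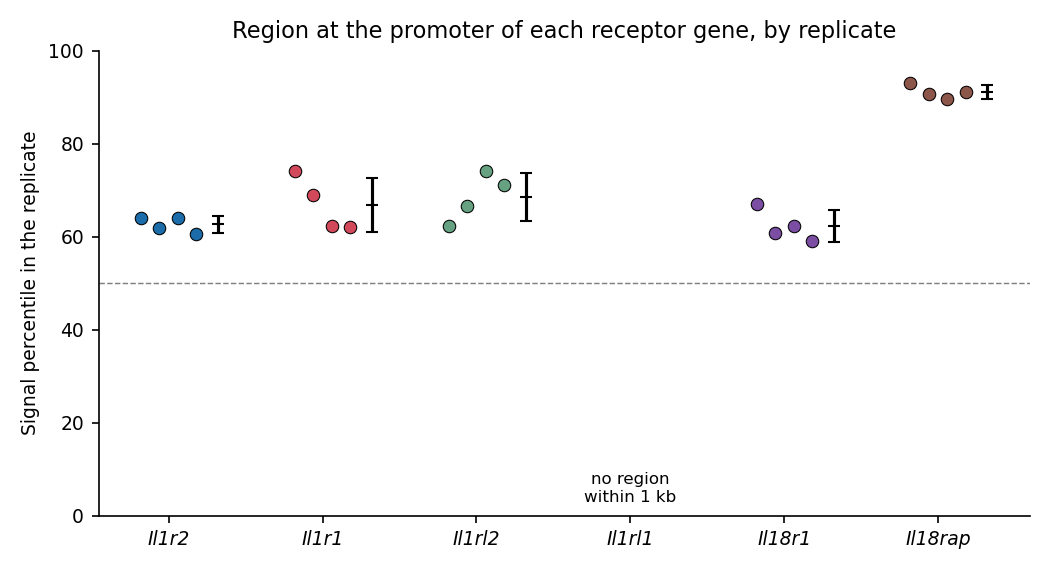
Signal percentile (y axis) of the region at each receptor gene's promoter in replicates 1 to 4, left to right, with the mean and SD beside them and a dashed line at 50. Il18rap lies between 89.7 and 93.0, the other open promoters between 59.2 and 74.2, and Il1rl1 has no region.

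The call for Il1r2 depended on the distance allowed. Its region began 790 to 990 bp behind the TSS of its protein-coding transcript in the basic annotation, so 0 replicates were open within 500 bp. The RefSeq start of Il1r2, just after chr1:40085843-40086092, lies inside the same region. The gene's first annotated start, outside the set used for the calls, had no region within 1 kb in any replicate. There the nearest region lay 4711 to 4766 bp away. Il1r1 has a second start within the gene, where only replicate 3 had a region, at the 0.278 percentile of its list. Slc9a4 had a promoter region in replicates 1 and 2 only.

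By signal, no region assigned to Il1r2 was as strong as the far and near upstream regions assigned to Il1r1. The far one lies about as close to the end of Il1r2 as to the Il1r1 TSS. None of the 11 shared regions of Il1r2 had a mean above the 75th signal percentile. The strongest, chr1:40116149-40116725 in an intron, had a signal of 9.20, 9.61, 9.86 and 10.4 at the 74.3 ± 3.78 percentile. Within the strongest 50000 regions of each replicate, Il1r2 had 6 shared regions and Il1r1 7. The 3 neighbouring regions 25.4 to 30.7 kb before the protein-coding TSS of Il1r2 ranked far higher by -log10 q than by signal. This TSS lies inside the annotated gene, so the gene's first start is nearer to them. The 3 regions were picked after their values were seen. The middle one, chr1:40055751-40056404, had a signal of 8.19, 8.43, 6.95 and 7.24, at the 61.8 ± 3.34 percentile, and a -log10 q at the 96.7 ± 0.980 percentile. Its neighbours had signal percentiles of 44.4 ± 3.16 and 41.4 ± 1.67 beside -log10 q percentiles of 85.2 ± 1.99 and 81.9 ± 0.988. By -log10 q the far and near upstream regions of Il1r1 lay at the 86.5 ± 1.92 and 91.7 ± 0.438 percentiles, below the middle region of Il1r2.

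Over the whole window, 5 of 41 shared regions ranked more than 20 points higher by -log10 q than by signal, where 11.1% of all shared regions did, so the count was near the background. The 5 were these 3 at Il1r2, 1 in Il1r1 and 1 in Slc9a4. The order of regions by strength therefore depended on which deposited value was used. The median over the 37 receptor regions was 62.3 by signal and 68.8 by -log10 q.

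**Figure D5:**
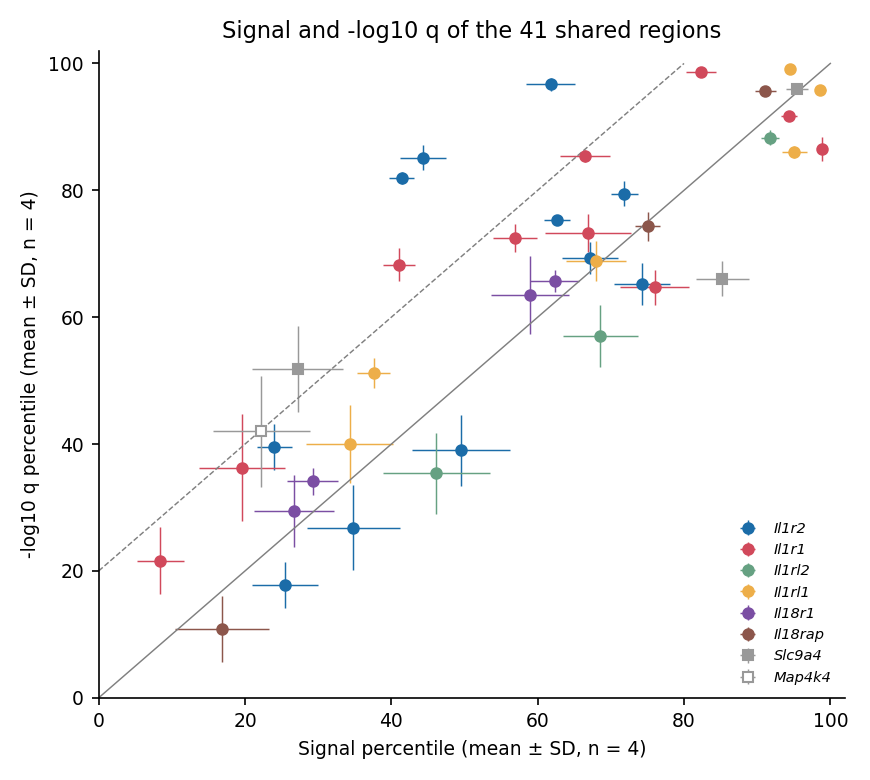
Mean percentile by deposited signal (x axis) and by -log10 q (y axis) of the 41 shared regions, with SDs over 4 replicates and colours by gene. On the solid line both are equal, and above the dashed line the -log10 q percentile is more than 20 points higher. The 3 Il1r2 points above the dashed line are the neighbouring upstream regions.

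The interleukin 36 and interleukin 18 receptor genes had few regions by count. Il1rl2 had its promoter region, a weaker intergenic region behind the gene at the 46.2 ± 7.32 percentile, and the intronic region chr1:40358604-40359667, with a signal of 14.5, 13.9, 13.6 and 13.7 at the 91.8 ± 1.24 percentile. Il18r1, the ligand-binding interleukin 18 receptor chain, had its strongest region at the promoter, chr1:40465384-40466183, with a signal of 8.59, 7.78, 7.43 and 7.27, and its other 3 regions lay at 59.0, 29.2 and 26.7. Il18rap had, beside its promoter, a region in an intron at the 75.0 ± 1.72 percentile and a weak one at 16.9 ± 6.43. At Slc9a4 the region chr1:40586597-40587434 had a signal of 14.8, 16.6, 14.4 and 15.2, at the 95.5 ± 1.45 percentile, and the region 17.4 kb upstream of that gene lay at the 85.2 ± 3.62 percentile. The 1 shared region of Map4k4 lay at the 22.2 ± 6.60 percentile.

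Regions that were not shared were weak. Of these 17, 3 were present in 3 replicates, 5 in 2 and 9 in 1, and none exceeded the 36.9 percentile in any replicate. Il1r1 had 8 of them and Il1r2 had 4.

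AP-1 strings were found within 50 bp of the summit in 10 of the 41 shared regions and in 9 of the 37 receptor regions (24.3%), where 21.7% of all shared regions had one. Il1r2 had 5 of the 9, at 4 of its 6 upstream regions and 1 intronic region. Il1r1 had 2, and Il1rl2 and Il1rl1 had 1 each. The Il1r2 upstream sequence printed above carries 2 AP-1 matches, 40 bp before and 38 bp behind its summit, and 1 ROR match. ROR strings were found in 2 receptor regions (5.41%, against 1.29% of all shared regions), STAT strings in 2 (5.41%, against 3.47%), RUNX strings in 2 (5.41%, against 5.16%) and ETS strings in 1 (2.70%, against 5.42%). The CTCF pattern matched 0 of 41 regions in the window (5.35% of all shared regions), the T-box string 0 (1.44%) and the AP-1 and IRF composite pattern 0 (1.03%). The NF-kB pattern matched 1, an intronic Il18r1 region (0.690% of all shared regions). Counts of this size are descriptions of letters and were not tested.

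RefSeq listed 10 promoters for the 6 receptors. The ratio of observed to expected CpG, over 250 bases before and 50 after the start, was lowest at the upstream promoter of Il1rl1, 0.099 (13.0 percentile of 32851 promoters), and highest at Il1r2, 0.812 (80.1 percentile). The second Il1rl1 promoter had 0.214, close to the open promoter of Il1rl2 at 0.211. Those of Il1r1, Il18rap and Il18r1 lay between 0.274 and 0.465, beside a median of 0.384 over all promoters. Over the 250 bases before the start, the STAT string occurred in 2 of the 10 (Il1r2 and 1 start of Il18r1, 7.02% of all promoters), the ETS string in 1 (Il18rap, 7.69%), and AP-1 (6.75%), RUNX (4.40%) and NF-kB (1.21%) strings in 0.

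The rest of the pathway was mostly open downstream of the receptors and mostly closed at the ligands, with 26 of 37 genes open in all 4 replicates. Over all protein-coding genes 62.2% were open, so the total was near the background. All 12 adaptor and kinase genes were open, from Pik3ap1, a phosphoinositide 3-kinase adaptor with 18 shared regions in or within 10 kb of the gene, down to Irak1, a receptor-associated kinase with 1. All 10 genes of NF-kB and MAP kinase output were open, from Nfkb1, which encodes an NF-kB subunit, with 22 shared regions to Rela, which encodes another, with 3. Of the receptors outside the cluster, 1 of 4 was open, the shared co-receptor gene Il1rap with 10 shared regions, while Il1rapl1 and Il1rapl2, of neurons, had 0 and Sigirr, an inhibitory receptor, was closed with 3. Of 11 ligand genes 3 were open, Il1rn (the interleukin 1 receptor antagonist, 8 shared regions), Il18 (5) and Il18bp (the interleukin 18 decoy, 2), and Il1a, Il1b, Il33, the 3 interleukin 36 agonist genes, Il36rn and Il1f10 were closed.

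Against 48 other cytokine receptor genes, the receptors of the cluster ranked between 23 and 42 of 54 in the order of shared regions per 10 kb, counted over the gene and 10 kb beyond either end. Il1r2 (0.984) and Il1r1 (0.891) ranked 23 and 26 of 54, Il18r1 (0.723) 30, Il1rl2 (0.635) 33, Il1rl1 (0.537) 41 and Il18rap (0.532) 42. The median over all protein-coding genes was 0.533. The 10 kb beyond a gene can reach a neighbour's regions, which then count for both genes. The value of Il1rl1 included the promoter region and an intronic region of Il18r1, and that of Il1rl2 the last region in Il1r1. The value of Il1r1 included the Il1rl2 promoter region. By this density the nearest receptors outside the cluster were Csf1r and Il10rb for Il1r2, Ifnar1 and Il2rb for Il1r1, Il17rc and Tgfbr3 for Il1rl2, Il3ra and Ifngr2 for Il18r1, and Il31ra and Osmr for both Il1rl1 and Il18rap. Promoters were open in 35 of these 48 genes, beside 62.2% of all protein-coding genes.

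The replicates were also compared by tag. Both KS134 replicates lay above both KS136 replicates in signal percentile at 7 of the 41 shared regions, where 21.1% of all shared regions did, and below them at 10, where 21.4% did. The Il1r1 promoter region averaged 71.6 in KS134 and 62.2 in KS136, and the Il1rl2 promoter region 64.5 in KS134 and 72.7 in KS136. The greatest difference of any region was 10.7 points, at Map4k4. The 4 replicates cannot give a p below 0.333 in this comparison.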

How the data were processed

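ATAC-seq peak lists of 4 Th17 replicates were used, 1 list per replicate, on the mm10 build per the labels. Each deposited region carries a signal value, taken from the list format as enrichment over background, which is not normalised between replicates. The -log10 p and -log10 q values per region were also made by the authors, and the deposited display score was not used. Aligner, caller and versions: not given in the sources used here. Words in the region names point to masking, deduplication and sorting of reads, and others (72hrs, ASTARR.insert) are unexplained. The cell-type lists, motifs and receptor genes were chosen with earlier results of these data known.

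Regions outside the autosomes, X and Y were dropped, and regions overlapping by at least 1 bp were merged. Where 1 replicate had several regions in a merged region, the one with the highest signal was used, and the summit was that of the replicate with the highest -log10 q. Percentiles were taken within a replicate over all its regions, which removes the scale of signal between replicates but not the effect of depth on which weak regions were listed. GENCODE release M21 gave 21851 protein-coding genes, with the TSSs of protein-coding transcripts in the basic set. The genes Il36a, Il36b, Il36g and Il36rn were matched through RefSeq synonyms, and Trac, which has no protein-coding entry there, was left out. Motifs were searched within 50 bp of the summit on both strands. Named are every receptor, the other genes in the window, the 10 strongest regions and each receptor's strongest region, pathway genes at both ends of the order in each role, and the 2 nearest cytokine receptor genes by region density. Of the 10 strongest regions, 1 is not reported here. Scripts ran in Python 3.11.15 with pandas 2.3.3, numpy 2.4.6 and pysam 0.24.0 and were tested on simulated data. No test was made, since 1 group of 4 replicates cannot give a sign-flip p under 0.125. Alternatives were the -log10 q minimum, the strongest 50000 regions, fewer replicates, summit distance, assignment, flank, promoter distance, TSS set, motif window and leaving out each replicate.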

Additional observations from a re-analysis of the deposited data

Results flagged for a closer look

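Of 59 quantities checked over the 4 replicates, 5 had 1 replicate far from the other 3, and chance alone flags about 1 in 20 groups of 4. That rate does not hold for region counts, where 3 equal replicates and 1 different always give a flag, as at Il18r1 and Il18rap below. The share of window bases covered averaged 6.43%, with replicate 3 at 6.97% and the others between 6.19% and 6.32%. Replicate 3 also had 5 regions at Il18r1, where the others had 4 (mean 4.25), and 4 at Il18rap, where the others had 3 (mean 3.25). The extra region in each case was weak, at the 6.25 and 13.5 percentile. An intronic Il1r2 region, chr1:40106376-40107324, had a mean signal percentile of 24.0, with replicate 1 at 27.6 and the others between 22.5 and 23.3. Another, chr1:40109207-40110234, averaged 71.8, with replicate 2 at 69.1 and the others between 72.6 and 72.9.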

How the results depend on the processing

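The density ratio of the window to the rest, 2.68, was 2.84 with a -log10 q of at least 10, 2.52 with a flank of 10 kb and 2.79 with a flank of 100 kb. Without each replicate in turn it was 2.63 to 2.72. Within the strongest 50000 regions the window held 25 shared regions and the receptors 23, in place of 41 and 37. Leaving out a replicate gave 41 to 43 and 37 to 39. The median signal percentile of receptor regions, 62.3, was 57.1 with a -log10 q of at least 10, 52.3 in the strongest 50000, 53.2 with regions of at least 2 replicates, 66.7 with summits within 100 bp and 68.8 by -log10 q. Leaving out a replicate gave 60.9 to 63.3. Receptor regions with an AP-1 match numbered 5 within 25 bp of the summit and 17 within 100 bp, against 9 within 50 bp, since the window searched changes. For the -log10 q minimum and the strongest 50000, percentiles were ranked among the kept regions only, so their scale changed too. The cause of the other shifts was not tested. Open receptor promoters stayed at 5 and pathway genes at 26 without each replicate. With the starts of all transcripts, added after the data were seen, they were 5 and 27. In all, 12 alternative values of the main results moved and 53 did not. A count moved when it changed by over 1.5 times, and the density ratio or percentile when it changed by over 1 SD. Depth is unknown, so a weak region missing from a list may be below its detection limit. No paired analysis was possible because the series has 1 group only.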
